A study of Homo sapiens with 12 samples.

Results

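The genes described here are 32 genes of cholesterol and fatty acid synthesis, taken by their symbols from the 57773 genes of the deposited FPKM table. They hold 6 enzymes of the mevalonate pathway, 3 of the isoprenoid branch, 9 that build the sterol ring, 5 regulators, 4 enzymes of fatty acid synthesis, 1 elongase with 3 desaturases, and 1 sterol carrier. They were measured in U87, an established human glioblastoma line grown in medium with fetal bovine serum, as a parental line and as a derivative whose labels give it acquired resistance to JQ1. The 6 groups were resistant cells with dBET6, resistant cells with JQ1, resistant cells with DMSO, parental cells with dBET6, parental cells with JQ1 and parental cells with DMSO, each exposed for 24 h and each with 2 polyA RNA libraries, 12 in all. Both compounds were used at 1000 nM, and DMSO is their solvent. JQ1 is a small molecule that blocks the acetyl-lysine pocket of the BET proteins, readers of acetylated chromatin. dBET6 is a degrader in which a JQ1-derived BET binder is tethered to a thalidomide-type ligand of cereblon, part of a ubiquitin ligase. Whether the resistant line is a clone or a mixed culture, and whether the replicates of a group were separate cultures, is not given in the sources used here. The p-values therefore speak only of the spread among these libraries, which may be technical.

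Cells make cholesterol from acetyl-CoA by way of HMG-CoA, mevalonate, isoprenoid diphosphates and squalene, whose ring is closed to lanosterol and then trimmed and reduced to cholesterol. Fatty acids start from the same acetyl-CoA, which ATP citrate lyase and acetyl-CoA synthetase supply, and are built by acetyl-CoA carboxylase and fatty acid synthase before elongases and desaturases modify them. Both routes answer to the SREBP transcription factors, which SCAP carries out of the endoplasmic reticulum when sterols are scarce and which the INSIG proteins hold back when sterols are plentiful. Glioblastoma cells are known to depend on SREBP activity and on a supply of cholesterol.

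The stretches of DNA in front of these genes are shown because SREBP binds there together with general promoter factors, among them NF-Y at CCAAT. RefSeq (GRCh38.p14) gave a promoter entry for 28 of the 32 genes, and the 250 bases before a start were read from it, 5′ to 3′ on the gene's strand. The sterol regulatory element of SREBP was searched as TCACNCCAC and the NF-Y box as CCAAT, both on either strand. Only this 1 form of the element was searched, so any variants of it were not counted. Overlapping matches were each counted, so a CCAATTGG stretch counts once on each strand. The element was found in 1 of the 28 genes (3.6%), SREBF2, 133 bases before its start, and in 1.1% of 27305 RefSeq genes. CCAAT was found in 20 of the 28 (71.4%) and in 37.0% of all genes. The GC box GGGCGG, a site of Sp1-type factors, was in 96.4% of the 28 and in 46.2% of all genes, and the E-box CACGTG in 7.1% and 7.7%. These are matches of letters in a short window and say nothing of binding. The windows below are examples, from 4 genes with a box and 1 without: SREBF2 at chr22:41832855-41833104, MSMO1 at chr4:165327419-165327668 and SCD at chr10:100346983-100347232, all on the plus strand, HMGCS1 at chr5:43313413-43313662 on the minus strand, and INSIG2 at chr2:118088221-118088470 on the plus strand. Capitals mark the sterol regulatory element and CCAAT, or ATTGG where CCAAT lies on the opposite strand.
SREBF2: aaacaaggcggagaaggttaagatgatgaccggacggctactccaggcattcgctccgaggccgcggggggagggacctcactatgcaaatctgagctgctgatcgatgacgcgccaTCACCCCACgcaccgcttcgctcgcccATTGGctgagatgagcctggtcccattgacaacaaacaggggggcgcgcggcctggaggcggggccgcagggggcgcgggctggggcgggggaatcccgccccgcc
MSMO1: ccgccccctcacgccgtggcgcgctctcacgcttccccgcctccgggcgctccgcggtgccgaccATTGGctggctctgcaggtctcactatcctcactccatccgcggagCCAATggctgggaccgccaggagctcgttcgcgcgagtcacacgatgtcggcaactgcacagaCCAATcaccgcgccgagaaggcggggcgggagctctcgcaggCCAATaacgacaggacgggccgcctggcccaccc
HMGCS1: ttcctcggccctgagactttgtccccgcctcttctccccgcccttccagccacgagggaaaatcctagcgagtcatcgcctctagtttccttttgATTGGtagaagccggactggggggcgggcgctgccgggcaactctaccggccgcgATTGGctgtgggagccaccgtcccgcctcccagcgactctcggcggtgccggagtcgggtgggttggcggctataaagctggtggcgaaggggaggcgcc
SCD: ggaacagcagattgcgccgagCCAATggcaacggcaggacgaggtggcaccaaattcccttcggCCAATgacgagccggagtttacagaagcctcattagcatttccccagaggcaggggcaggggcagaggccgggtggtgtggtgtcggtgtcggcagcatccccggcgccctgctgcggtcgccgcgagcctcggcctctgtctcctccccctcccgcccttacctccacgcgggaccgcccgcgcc
INSIG2: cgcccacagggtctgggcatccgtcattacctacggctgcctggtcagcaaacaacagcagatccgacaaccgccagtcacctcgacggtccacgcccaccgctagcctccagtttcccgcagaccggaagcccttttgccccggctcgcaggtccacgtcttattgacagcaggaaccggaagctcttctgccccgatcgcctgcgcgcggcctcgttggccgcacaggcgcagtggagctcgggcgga
MSMO1 held 4 CCAAT boxes, HMGCS1 and SCD 2 each, and SREBF2 1 beside its sterol regulatory element. Neither set of letters was in the INSIG2 window. CCAAT was found in genes called either way with dBET6. Of the genes higher in both lines and with a promoter entry, only PMVK and FADS2 held none. Of those lower in both lines and with an entry, CYP51A1, ELOVL6 and INSIG2 held none, while MVK and NSDHL held 5 each. Whether CCAAT goes with the direction of change was not tested. The NSDHL number counts a CCAATTGG stretch on both strands.

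The libraries held 24732177 to 40388589 estimated counts, the 4 dBET6 libraries at most 29041636 and the other 8 at least 31346557. All 6 of the glioma and mesenchymal markers checked were above 1 FPKM in every library. Among astrocyte and neural stem markers, GFAP lay at 1.58 to 6.39, SOX2 at 0 to 1.66 and S100B at 0.143 to 1.87 FPKM. OLIG2 and AQP4 stayed below 1 FPKM, and so did all 8 markers of blood, endothelium, epithelium and liver. The 4 dBET6 libraries differed from the other 8 in makeup: mitochondrially encoded mRNAs took 3.19% to 3.94% of their counts against 1.46% to 2.70%, the 50 most abundant genes 25.79% to 31.03% against 12.4% to 18.5%, and protein-coding transcripts 87.1% to 88.5% against 89.2% to 91.7%. Their part in the results below was not tested. Fold changes are therefore given relative to the median gene, as TMM scaling sets it. With scaling to total counts the median gene shifted by -1.14 (log2) with dBET6 in resistant and -0.65 in parental cells, and by -0.17 and -0.10 with JQ1. Scaled to the mitochondrial mRNAs it moved by -2.12 and -1.78 with dBET6 and by -0.56 and -0.28 with JQ1. In bulk RNA, fewer cells of a kind and less RNA per cell cannot be told apart.

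Relative to the median gene, JQ1 raised most of the listed genes with counts in both lines, while dBET6 raised some strongly and lowered others strongly. With JQ1, 19 of the 31 genes with counts were higher and 5 lower in resistant cells, beside 20.8% and 23.1% (43.9% in all) of the 19093 genes tested. In parental cells 18 were higher and 7 lower, beside 22.8% and 26.1% (48.9% in all). Of the genes higher with JQ1, 17 were so in both lines (89.5% of the resistant and 94.4% of the parental calls), and 4 were lower in both. With dBET6, 19 were higher and 8 lower in resistant cells (35.7% and 39.5% of all genes, 75.2% together), and 14 were higher and 12 lower in parental cells (37.0% and 39.3%, 76.3% together). The parental share is thus near the background, while the resistant share of higher genes is above it. The list was chosen with earlier results of these data known, so a share above the background is no independent test. The median log2 fold change of the 31 genes was 0.41 and 0.42 with JQ1 and 0.70 and 0.07 with dBET6 in resistant and parental cells, against all-gene medians between -0.06 and 0.01. The split between higher and lower depends on the scaling. Scaled to total counts, 9 genes were higher and 17 lower with dBET6 in resistant cells and 4 and 19 in parental cells, while with JQ1 they were 14 and 9 and 17 and 7. Scaled to mitochondrial mRNA, 27 and 28 genes were lower with dBET6 in resistant and parental cells, and with JQ1 3 were higher and 9 lower in resistant and 7 and 7 in parental cells. No share of all genes by direction was computed under these 2 scalings. Scaled to total counts, the list's median with dBET6 was -0.37 in resistant and -0.57 in parental cells (all genes -1.14 and -0.65). Scaled to mitochondrial mRNA it was -1.365 and -1.72 (all genes -2.12 and -1.78). With JQ1 the list's medians were 0.22 and 0.30 under total counts (all genes -0.17 and -0.10). A gene was called at a Benjamini-Hochberg adjusted p under 0.05 in edgeR's quasi-likelihood test, and both comparisons within a line share its DMSO libraries. ACACA (acetyl-CoA carboxylase) had no transcript that could be paired with it and is given below from the FPKM values alone.

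**Figure D1:**
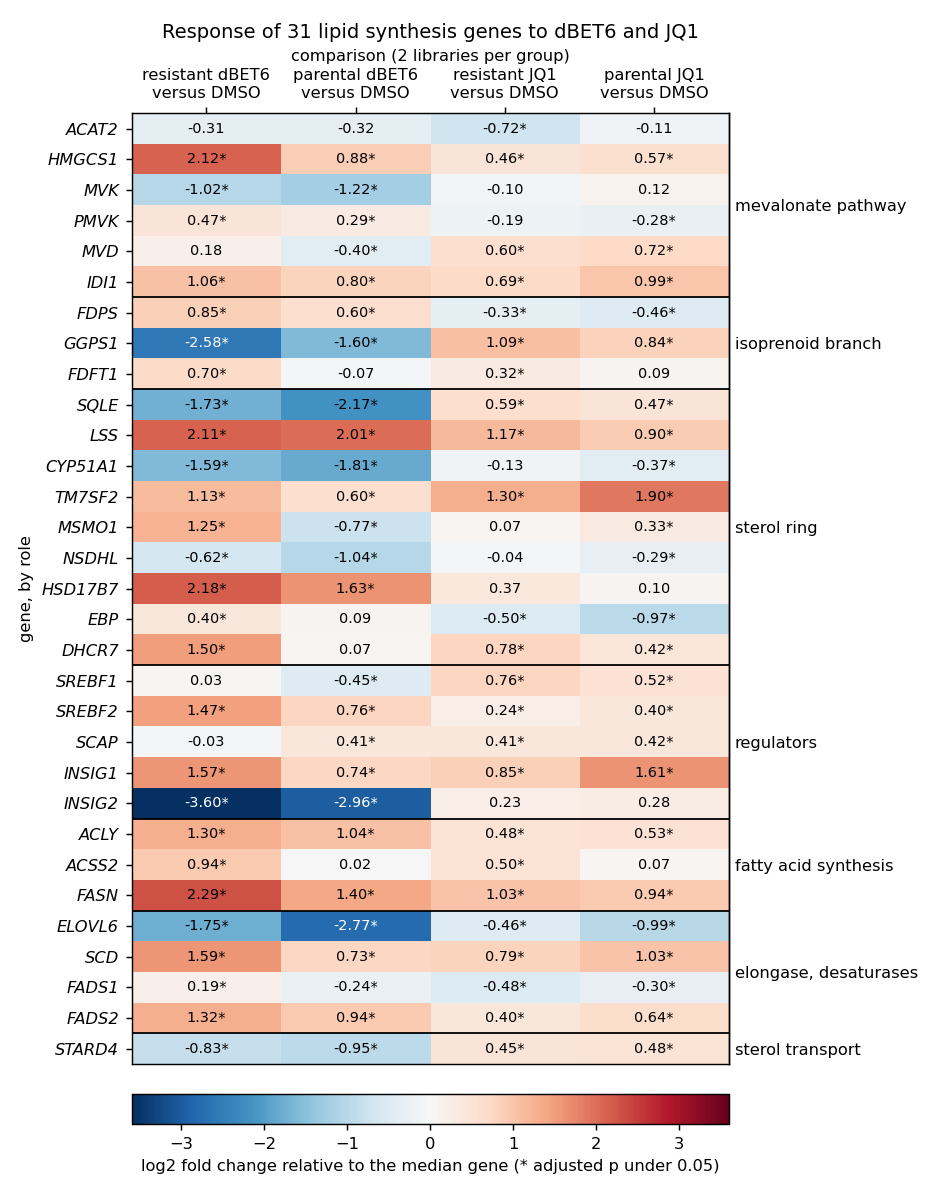
Log2 fold change, relative to the median gene, of 31 genes (rows, by role) with dBET6 and with JQ1 against DMSO in resistant and parental cells (columns, 2 libraries per group), with an asterisk at an adjusted p under 0.05. The JQ1 columns are mostly red and mild, while the dBET6 columns hold both the strongest rises (FASN, 2.29 in resistant cells) and the strongest falls (INSIG2, -3.595).

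The regulators moved apart. SREBF2, which encodes the SREBP that mainly serves cholesterol genes, stood at 216 and 220 CPM (counts scaled to the TMM-normalised size of the library) in resistant cells with dBET6, 92.8 and 93.2 CPM with JQ1, and 79.3 and 77.8 CPM with DMSO. In parental cells it stood at 89.6 and 72.5 CPM with dBET6, 66.1 and 60.3 CPM with JQ1, and 46.5 and 49.1 CPM with DMSO. The order dBET6, JQ1, DMSO was the same in both lines and no 2 groups of a line overlapped. With dBET6 SREBF2 rose by 1.47 ± 0.09 (log2, SE) in resistant cells (adjusted p = 3.37e-14) and by 0.76 ± 0.09 in parental cells (3.28e-08). With JQ1 the change was 0.40 ± 0.09 in parental cells (adjusted p = 6.26e-04) and 0.24 ± 0.09 in resistant cells (0.0297), and the resistant call was lost without any 1 of its 4 libraries (adjusted p 0.11 to 0.166).

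SREBF1, whose SREBP mainly serves fatty acid genes, behaved otherwise. It stood at 91.1 and 84.8 CPM with dBET6, 147 and 146 CPM with JQ1, and 85.31 and 87.03 CPM with DMSO in resistant cells. Parental cells gave 91.3 and 68.5 CPM with dBET6, 171 and 142 CPM with JQ1, and 105 and 114 CPM with DMSO. JQ1 libraries were thus the highest in either line, and in resistant cells dBET6 and DMSO overlapped. JQ1 raised SREBF1 by 0.76 ± 0.11 in resistant and 0.52 ± 0.11 in parental cells (adjusted p = 4.78e-06 and 3.65e-04). With dBET6 it fell by 0.45 ± 0.11 in parental cells (adjusted p = 8.54e-04), and in resistant cells its change was 0.03 (95% confidence interval -0.20 to 0.26).

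INSIG1 and INSIG2, the paired brakes on SREBP processing, parted most. INSIG1, itself a classical SREBP target, stood at 426 and 430 CPM with dBET6, 267 and 253 CPM with JQ1, and 149 and 138 CPM with DMSO in resistant cells. In parental cells the order of the compounds was the other way round, with 128 and 121 CPM for dBET6, 217 and 236 CPM for JQ1, and 76.7 and 72.2 CPM for DMSO. It rose in all 4 comparisons with DMSO, by 1.57 ± 0.08 and 0.74 ± 0.08 with dBET6 and 0.85 ± 0.08 and 1.61 ± 0.09 with JQ1, in resistant and parental cells. INSIG2, whose protein does the same work but which is not driven by SREBP in the same way, was at 0.481 and 0.810 CPM in resistant cells with dBET6 and at 7.91 and 7.96 CPM with DMSO. Parental cells gave 1.19 and 1.24 CPM with dBET6 and 10.6 and 8.39 CPM with DMSO. JQ1 libraries ranged from 7.83 to 11.6 CPM over both lines. INSIG2 fell by 3.595 ± 0.264 (log2) with dBET6 in resistant cells and by 2.96 ± 0.21 in parental cells (adjusted p = 1.05e-12 and 9.21e-13), while with JQ1 its change passed in neither line (0.24 and 0.28), though without parental DMSO replicate 1 the parental change was 0.45 (adjusted p = 0.0425). SCAP, the escort of SREBP, stood at 82.7 and 78.9 CPM with dBET6, 107 and 112 CPM with JQ1 and 82.4 and 82.5 CPM with DMSO in resistant cells, and at 153 and 120, 143 and 132, and 101 and 105 CPM in parental cells. JQ1 raised it by 0.41 and 0.42 in resistant and parental cells. dBET6 raised it by 0.41 ± 0.10 in parental cells, a call that ended without dBET6 replicate 1 (0.17, adjusted p = 0.0992).

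**Figure D2:**
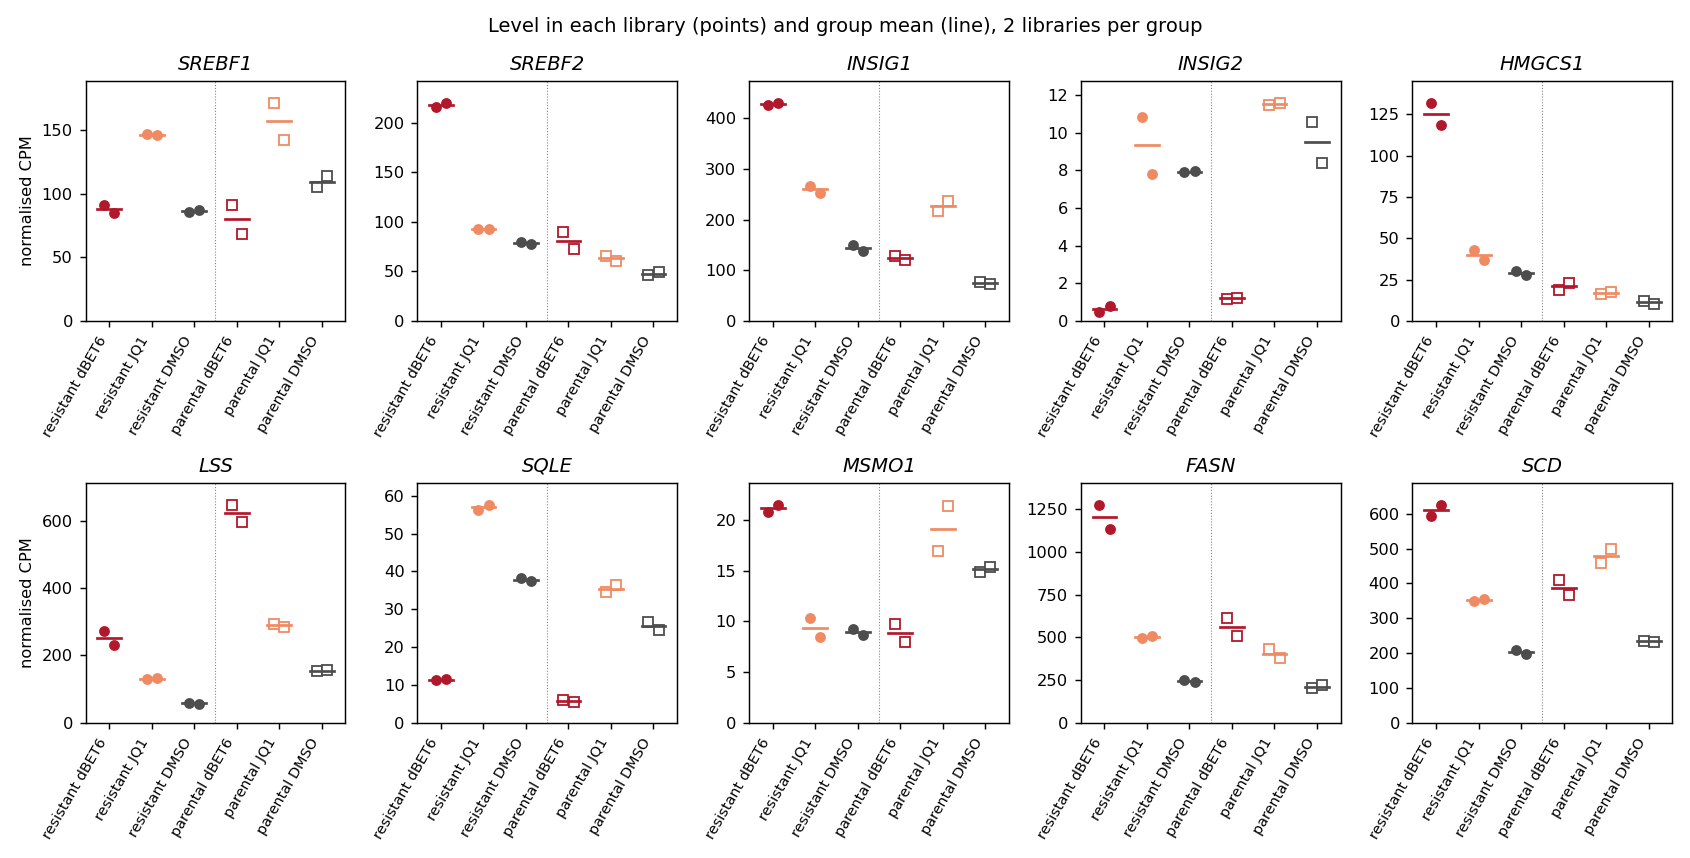
Normalised CPM (linear axes from 0) of 10 genes in each library (points; filled circles resistant, open squares parental) with the group mean as a line, 2 libraries per group. INSIG1 is highest with dBET6 in resistant cells (426 and 430 CPM) but with JQ1 in parental cells (217 and 236 CPM), and INSIG2 and SQLE are lowest with dBET6 in both lines.

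In the mevalonate pathway HMGCS1 had the largest rise with dBET6 and IDI1 with JQ1, in both lines. HMGCS1, the HMG-CoA synthase, stood at 132 and 119 CPM with dBET6, 42.7 and 36.8 CPM with JQ1 and 30.0 and 27.7 CPM with DMSO in resistant cells. Parental cells had 19.1 and 22.8 CPM with dBET6, 16.1 and 17.6 CPM with JQ1, and 12.1 and 10.5 CPM with DMSO. Every resistant library was above every parental one. The rise with dBET6 was 4.34-fold in resistant cells (log2 2.12 ± 0.10, adjusted p = 1.67e-16) and 1.85-fold in parental cells (0.88 ± 0.11, 8.68e-08). IDI1, the isopentenyl diphosphate isomerase, had 51.1 and 52.2 CPM with dBET6, 44.0 and 35.8 CPM with JQ1 and 25.5 and 24.0 CPM with DMSO in resistant cells, and 34.2 and 39.0, 38.1 and 45.6, and 20.9 and 21.0 CPM in parental cells. It rose in all 4 comparisons by 0.69 to 1.06 on the log2 scale. MVK, the mevalonate kinase, fell with dBET6 to 7.49 and 6.79 CPM in resistant cells, against 14.8 and 14.2 CPM with DMSO, and to 7.04 and 6.27 CPM in parental cells, against 14.9 and 16.2 CPM. That is a fall of 1.02 ± 0.13 and 1.22 ± 0.12 (adjusted p = 4.17e-08 and 8.67e-10), and with JQ1 MVK did not pass in either line (-0.10 and 0.12). MVD, the decarboxylase of the pathway, rose with JQ1 by 0.60 and 0.72 in resistant and parental cells and fell with dBET6 by 0.40 in parental cells. PMVK, the kinase next to MVK, rose with dBET6 by 0.47 in resistant and 0.29 in parental cells, and the parental call was lost without dBET6 replicate 1 or DMSO replicate 1 (adjusted p 0.0757 and 0.153). ACAT2, the cytosolic thiolase, passed on counts in resistant cells with JQ1, at -0.72 ± 0.18. With dBET6 its counts changed by -0.31 ± 0.19 in resistant and -0.32 ± 0.18 in parental cells, which did not pass, though without parental dBET6 replicate 1 the parental change was -0.76 (adjusted p = 0.00313). The transcripts paired with it gave 0.477 of its deposited FPKM, so its counts miss part of it. On the deposited scale ACAT2 stood at 2.25 and 2.69 FPKM with dBET6 against 5.19 and 4.68 FPKM with DMSO in resistant cells, and at 2.89 and 2.93 against 5.80 and 5.10 FPKM in parental cells. There it was lower with dBET6 in both lines, at -0.78 ± 0.12 and -0.72 ± 0.12 on the log2(FPKM + 1) scale (limma adjusted p = 2.56e-04 and 4.57e-04).

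The isoprenoid branch split with the compound. GGPS1, which makes the geranylgeranyl diphosphate used to anchor small GTPases in membranes, stood at 2.68 and 2.93 CPM with dBET6, 36.8 and 34.9 CPM with JQ1, and 17.0 and 16.7 CPM with DMSO in resistant cells. In parental cells it stood at 4.61 and 6.42 CPM, 25.9 and 33.9 CPM, and 18.8 and 14.5 CPM with the same 3 treatments. JQ1 libraries were above and dBET6 libraries below the DMSO libraries in either line. GGPS1 rose by 1.09 ± 0.14 and 0.84 ± 0.14 with JQ1 and fell by 2.58 ± 0.20 and 1.60 ± 0.17 with dBET6, in resistant and parental cells. FDPS, the farnesyl diphosphate synthase just before it, went against GGPS1 with each compound. It had 129 and 145 CPM with dBET6, 59.2 and 62.1 CPM with JQ1, and 76.9 and 75.1 CPM with DMSO in resistant cells, and 147 and 134, 67.2 and 67.1, and 92.9 and 91.4 CPM in parental cells. Its log2 changes were 0.85 ± 0.09 and 0.60 ± 0.08 with dBET6 and -0.33 ± 0.09 and -0.46 ± 0.08 with JQ1, all 4 called. FDFT1, the squalene synthase that commits the carbon to sterols, stood at 124 and 135 CPM with dBET6 and 79.7 and 79.3 CPM with DMSO in resistant cells, and at 79.2 and 77.4 against 87.6 and 76.5 CPM in parental cells. It rose by 0.70 ± 0.09 in resistant cells (adjusted p = 3.49e-08), and the parental libraries overlapped. On the deposited FPKM scale the parental libraries did not overlap, at 88.3 and 88.0 FPKM with dBET6 against 56.8 and 50.4 FPKM with DMSO. There the parental change of FDFT1 was 0.71 on the log2(FPKM + 1) scale. Protein-coding transcripts held 50.1% and 48.6% of the parental FDFT1 TPM with dBET6, against 96.8% and 92.5% with DMSO. The mean effective length of its transcripts was 816 and 808 bases against 1462 and 1422 bases. The short intron-retaining transcript FDFT1-216 (418 bases), absent from parental DMSO libraries, is part of this FPKM value.

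In the sterol ring group the neighbouring steps of squalene moved in opposite ways with dBET6. SQLE, the squalene epoxidase, stood at 11.3 and 11.5 CPM with dBET6, 56.2 and 57.7 CPM with JQ1 and 38.2 and 37.4 CPM with DMSO in resistant cells. Parental cells had 5.90 and 5.39, 34.6 and 36.3, and 26.5 and 24.4 CPM. It fell by 1.73 ± 0.10 and 2.17 ± 0.11 with dBET6 and rose by 0.59 ± 0.09 and 0.47 ± 0.09 with JQ1. LSS, the lanosterol synthase that acts on the product of SQLE, stood at 274 and 231 CPM with dBET6, 129 and 133 CPM with JQ1 and 59.5 and 57.2 CPM with DMSO in resistant cells, and at 648 and 596, 294 and 285, and 153 and 157 CPM in parental cells. It rose 4.33-fold and 4.02-fold with dBET6 (log2 2.11 ± 0.09 and 2.01 ± 0.09, adjusted p = 1.63e-17 and 4.37e-17). CYP51A1, the lanosterol demethylase that follows, had 17.0 and 17.8 CPM with dBET6 against 54.0 and 50.8 CPM with DMSO in resistant cells and 12.6 and 14.1 against 47.4 and 46.3 CPM in parental cells, a fall of 1.59 ± 0.10 and 1.81 ± 0.10. NSDHL, a later dehydrogenase, also fell in both lines, by 0.62 and 1.04.

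Among the later sterol enzymes, DHCR7, MSMO1 and EBP rose with dBET6 in resistant cells and were not called higher in parental cells. DHCR7, the 7-dehydrocholesterol reductase, stood at 167 and 172 CPM with dBET6, 96.8 and 108 CPM with JQ1 and 60.5 and 58.8 CPM with DMSO in resistant cells. In parental cells it had 62.4 and 53.5, 75.3 and 73.2, and 52.8 and 57.9 CPM, where dBET6 and DMSO overlapped. It rose by 1.505 ± 0.09 with dBET6 in resistant cells (adjusted p = 1.39e-14), and the parental change was 0.07 ± 0.09. MSMO1, the sterol C4-methyl oxidase, had 20.8 and 21.5 CPM with dBET6 against 9.21 and 8.61 CPM with DMSO in resistant cells, and 9.75 and 7.98 against 14.9 and 15.4 CPM in parental cells. So it rose by 1.25 ± 0.13 in resistant and fell by 0.77 ± 0.14 in parental cells (adjusted p = 2.27e-09 and 1.32e-05). EBP, the sterol isomerase, stood at 35.8 and 41.0 CPM with JQ1 against 54.1 and 54.0 CPM with DMSO in resistant cells, and at 33.8 and 31.9 against 64.9 and 63.9 CPM in parental cells. It fell with JQ1 by 0.50 ± 0.09 and 0.97 ± 0.09. With dBET6 it had 72.5 and 69.8 CPM in resistant and 73.4 and 63.8 CPM in parental cells, changes of 0.40 ± 0.09, which passed, and 0.09 ± 0.09, which did not. TM7SF2, a sterol reductase of low level, had 6.27 and 6.26 CPM with JQ1 against 2.58 and 2.49 CPM with DMSO in resistant cells, and 7.46 and 7.90 against 1.94 and 2.18 CPM in parental cells. Its rise with JQ1 was 1.30 ± 0.19 and 1.90 ± 0.19 (adjusted p = 2.04e-06 and 4.47e-09). With dBET6 its changes were 1.13 ± 0.21 and 0.60 ± 0.22, and the parental call ended without dBET6 replicate 1 (0.10, adjusted p = 0.751) or DMSO replicate 1 (0.46, 0.127).

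In fatty acid synthesis all 3 genes with counts were higher, relative to the median gene, with either compound in resistant cells. In parental cells 2 of the 3 were, and ACSS2 passed with neither compound. This was not particular to the group, since with JQ1 the regulators had 4 of 5 higher and 0 lower in each line. The JQ1 call of ACSS2 in resistant cells (0.50 ± 0.15) was lost without DMSO replicate 1, DMSO replicate 2 or JQ1 replicate 2 (0.28 to 0.54, adjusted p 0.06 to 0.163). Under mitochondrial mRNA scaling ACLY and ACSS2 turned negative with JQ1 in resistant cells and with dBET6 in both lines, and FASN with dBET6 in parental cells. Under total count scaling ACSS2 turned negative with dBET6 in both lines. FASN, the fatty acid synthase, stood at 1277 and 1133 CPM with dBET6, 497 and 508 CPM with JQ1 and 251 and 241 CPM with DMSO in resistant cells. Parental cells had 613 and 508 CPM with dBET6, 433 and 378 CPM with JQ1, and 203 and 221 CPM with DMSO. Groups of a line did not overlap, and dBET6 was the highest in each. FASN rose 4.90-fold with dBET6 in resistant cells (log2 2.29 ± 0.10, adjusted p = 1.97e-17) and 2.64-fold in parental cells (1.40 ± 0.10, 4.93e-13), and by 1.03 ± 0.10 and 0.94 ± 0.10 with JQ1. ACLY, the citrate lyase that supplies cytosolic acetyl-CoA, had 1263 and 1287, 711 and 734, and 529 and 508 CPM with dBET6, JQ1 and DMSO in resistant cells and 1245 and 1070, 792 and 824, and 567 and 556 CPM in parental cells. It rose in all 4 comparisons, by 1.30 and 1.04 with dBET6 and by 0.48 and 0.53 with JQ1. ACSS2, which makes acetyl-CoA from acetate, rose with dBET6 in resistant cells by 0.94 ± 0.15 (adjusted p = 1.06e-04), to 88.5 and 80.9 CPM against 45.3 and 43.1 CPM. In parental cells its libraries spread from 30.5 to 44.3 CPM with dBET6 around the 35.6 and 38.2 CPM of DMSO, and without dBET6 replicate 1 its change was -0.32 (adjusted p = 0.0371) instead of 0.02. ACACA, the carboxylase between ACLY and FASN, ranged from 11.8 to 19.9 FPKM over all libraries. It rose by 0.61 ± 0.08 on the log2(FPKM + 1) scale with dBET6 in resistant cells in limma (adjusted p = 6.11e-05). Its other changes against DMSO were 0.16 with dBET6 in parental cells and 0.20 and 0.09 with JQ1, none of which passed.

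Among the genes that modify fatty acids, SCD, the stearoyl-CoA desaturase, was highest with dBET6 in resistant cells but with JQ1 in parental cells. It stood at 593 and 626 CPM with dBET6, 348 and 354 CPM with JQ1 and 209 and 197 CPM with DMSO in resistant cells, and at 409 and 367, 458 and 500, and 234 and 233 CPM in parental cells. It rose in all 4 comparisons, by 1.59 ± 0.09 and 0.73 ± 0.09 with dBET6 and by 0.79 ± 0.08 and 1.03 ± 0.08 with JQ1. FADS2, the delta-6 desaturase, rose in all 4 as well, by 0.40 to 1.32. Its resistant JQ1 call was lost without DMSO replicate 1, DMSO replicate 2 or JQ1 replicate 2 (0.19 to 0.47, adjusted p 0.0502 to 0.435). FADS1, the delta-5 desaturase, fell with JQ1 by 0.48 and 0.30. With dBET6 its change was 0.19 in resistant and -0.24 in parental cells, and the resistant call (adjusted p = 0.0448) was lost in 11 of 12 fits that left out 1 library (adjusted p 0.0781 to 0.612). ELOVL6, which lengthens palmitate to stearate, went the other way from SCD. Its counts stood at 6.66 and 6.54 CPM with dBET6, 16.1 and 16.2 CPM with JQ1 and 24.1 and 20.3 CPM with DMSO in resistant cells, and at 5.56 and 7.56, 22.8 and 22.1, and 47.9 and 41.2 CPM in parental cells. It fell by 1.75 ± 0.14 and 2.77 ± 0.13 with dBET6 and by 0.46 ± 0.11 and 0.99 ± 0.11 with JQ1, the resistant JQ1 call ending without DMSO replicate 1 (-0.33, adjusted p = 0.0782). On the deposited FPKM scale, which divides by transcript length, ELOVL6 did not fall with dBET6 (1.40 in resistant and 0.015 in parental cells, log2(FPKM + 1)). The TPM-weighted mean effective length of its transcripts was 118 and 164 bases with dBET6 against 1251 and 1334 bases with DMSO in resistant cells, and 290 and 182 against 2047 and 1307 bases in parental cells. STARD4, a carrier of sterols between membranes, stood at 5.63 and 7.29 CPM with dBET6, 17.55 and 13.96 CPM with JQ1 and 12.05 and 10.97 CPM with DMSO in resistant cells, and at 4.04 and 4.97, 11.8 and 12.4, and 8.95 and 8.42 CPM in parental cells. It fell by 0.83 ± 0.15 and 0.95 ± 0.16 with dBET6 and rose by 0.45 ± 0.13 and 0.48 ± 0.13 with JQ1, the resistant JQ1 call ending without DMSO replicate 2 or JQ1 replicate 1 (adjusted p 0.08 and 0.195).

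Without compound the lines already differed in 14 of the 31 genes, 6 higher and 8 lower in resistant cells, against 17.4% and 21.2% of all genes (38.5% in all), so the list as a whole stood near the background. HMGCS1 was 2.55-fold higher in resistant DMSO cells (log2 1.35 ± 0.11, adjusted p = 8.81e-11), INSIG1 by 0.95 ± 0.09 (7.3e-10), SREBF2 by 0.72 ± 0.09 (4.2e-07), SQLE by 0.57 ± 0.09 (7.85e-06) and FADS1 by 0.53 ± 0.08 (1.03e-05). LSS was lower in resistant cells, at -1.41 ± 0.09 (adjusted p = 1.07e-12), and so were ELOVL6 at -1.005 ± 0.109 (2.67e-08), MSMO1 at -0.77 ± 0.13 (2.08e-05) and PMVK at -0.67 ± 0.09 (5.29e-07). The resistant and parental DMSO libraries overlapped in none of these genes, which adds no support to calls made from the same libraries. No share of all genes without overlap was computed. The remaining calls, lower EBP, FDPS, SCAP and SREBF1 and higher STARD4, lay between -0.34 and 0.41, and each was lost without any 1 of 2 to 4 of the DMSO libraries (adjusted p up to 0.16). Without resistant DMSO replicate 1 or replicate 2 the number of lower genes was 4, and scaled to total counts 11 genes were higher and 7 lower. Under total count scaling the list's median was 0.003, against an all-gene median of 0.07. Per length, the most abundant genes in DMSO were ACLY, at a mean of 129 FPKM in resistant and 142 FPKM in parental cells, FDPS (79.6 and 99.9 FPKM) and EBP (81.9 and 93.5 FPKM). The lowest was TM7SF2, at 1.86 and 1.45 FPKM.

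The response to dBET6 differed between the lines in 17 of the 31 genes, with 15 more raised or less lowered in resistant cells and 2 the other way, against 13.7% and 14.2% of all genes. MSMO1 differed most, by 2.02 ± 0.19 (log2, resistant minus parental, adjusted p = 1.19e-08), since it rose in the resistant and fell in the parental line. DHCR7 differed by 1.44 ± 0.13 (4.09e-09), HMGCS1 by 1.23 ± 0.15 (8.46e-07), FASN by 0.89 ± 0.14 (1.64e-05), SCD by 0.86 ± 0.12 (5.09e-06), INSIG1 by 0.83 ± 0.12 (6.87e-06), FDFT1 by 0.77 ± 0.12 (2.73e-05) and SREBF2 by 0.71 ± 0.13 (1.42e-04). ELOVL6 differed by 1.02 ± 0.20, as its counts fell less in resistant cells, and ACSS2 by 0.92 ± 0.22. The 2 genes that differed downward were GGPS1 (-0.99 ± 0.28, adjusted p = 0.0109) and SCAP (-0.43 ± 0.14, 0.0169). The GGPS1 call was lost without parental dBET6 replicate 2, resistant dBET6 replicate 1 or resistant dBET6 replicate 2 (adjusted p 0.054 to 0.0867). Calls of SCAP, SREBF1, SQLE and NSDHL were each lost in 5 or 6 of the fits without 1 of the 8 libraries compared (adjusted p up to 0.227), and that of FADS1 in 2 (0.0603 and 0.0735). The difference for LSS was 0.11 (95% confidence interval -0.15 to 0.36), and for INSIG2 -0.63 (-1.47 to 0.20), neither of which passed. Scaled to total counts 9 genes differed upward and 3 downward, and scaled to mitochondrial mRNA 3 and 1. The list's median difference was then -0.02 and 0.13, against all-gene medians of -0.49 and -0.34.

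**Figure D3:**
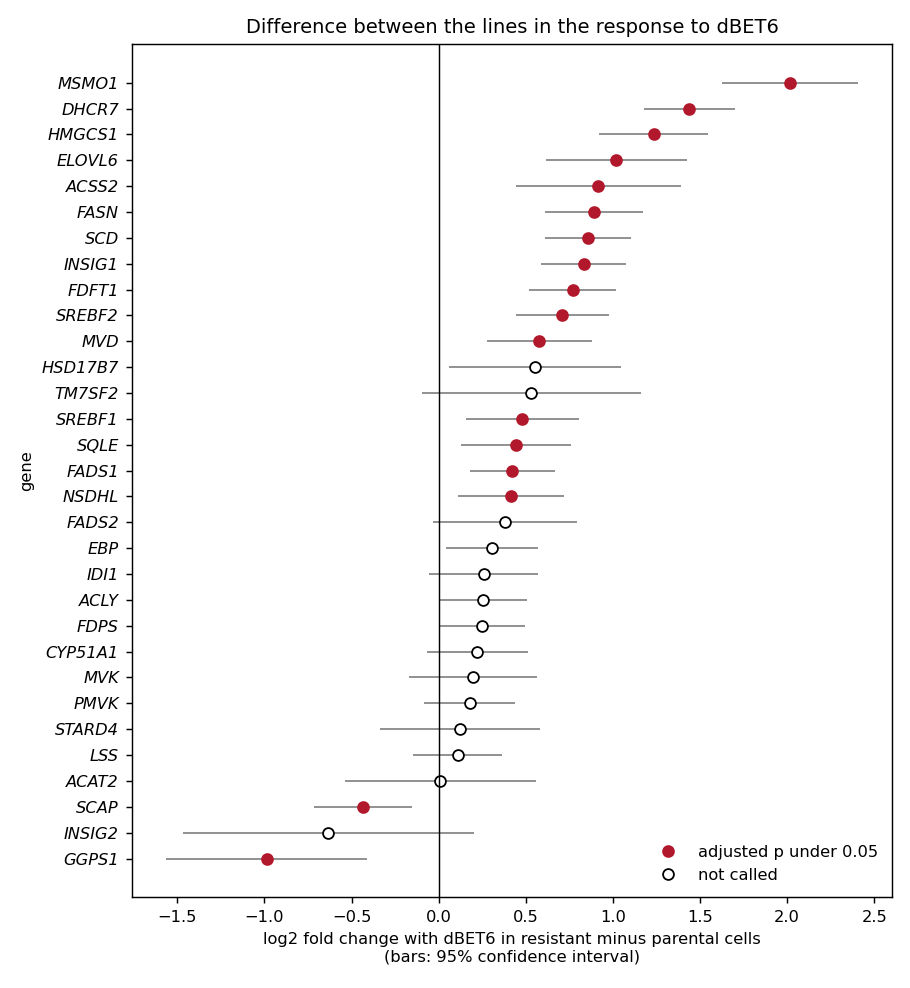
Difference in log2 fold change with dBET6 against DMSO, resistant minus parental cells, for 31 genes (points, filled at an adjusted p under 0.05) with 95% confidence intervals (bars), 2 libraries per group. MSMO1 (2.02), DHCR7 (1.44) and HMGCS1 (1.23) lie farthest to the right, and GGPS1 (-0.99) farthest to the left.

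The response to JQ1 differed between the lines in 3 of the 31 genes, against 6.50% of all genes. INSIG1 rose less in resistant cells (-0.75 ± 0.12, adjusted p = 1.41e-04), and this call held without each library in turn. EBP (0.47 ± 0.13, adjusted p = 0.0242) and ELOVL6 (0.53 ± 0.16, 0.0418) fell less in resistant cells, and their calls were lost in 5 and 6 of the fits without 1 of the 8 libraries compared (adjusted p up to 0.277). For FASN the difference was 0.10 (95% confidence interval -0.19 to 0.38), for SCAP -0.01 (-0.28 to 0.27) and for HMGCS1 -0.11 (-0.42 to 0.20).

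Set directly against each other at the same dose and time, the degrader and the inhibitor differed in 29 of the 31 genes in resistant cells, 18 higher and 11 lower with dBET6, beside 35.4% and 38.8% of all genes (74.2% in all). In parental cells they differed in 24, with 9 higher and 15 lower, beside 36.2% and 38.4% (74.6% in all). Scaled to total counts the splits were 5 and 19 in resistant and 4 and 21 in parental cells. The list's median was then -0.44 and -0.73, against all-gene medians of -0.90 and -0.51. SQLE was lower with dBET6 than with JQ1, at -2.32 ± 0.10 in resistant and -2.65 ± 0.11 in parental cells (adjusted p = 3.07e-17 and 1.4e-17). INSIG2 differed by -3.83 ± 0.26 and -3.24 ± 0.21, GGPS1 by -3.67 ± 0.19 and -2.44 ± 0.17, STARD4 by -1.28 ± 0.15 and -1.43 ± 0.16, and MVK by -0.92 ± 0.13 and -1.34 ± 0.12. FDPS was higher with dBET6 by 1.18 ± 0.09 and 1.06 ± 0.09, LSS by 0.95 ± 0.09 and 1.105 ± 0.088 and FASN by 1.26 ± 0.10 and 0.47 ± 0.10. Between the lines, INSIG1 turned round, with dBET6 above JQ1 in resistant cells (0.72 ± 0.08, adjusted p = 1.17e-08) and below it in parental cells (-0.86 ± 0.08, 5.64e-10). MSMO1 did so as well (1.17 ± 0.13 and -1.104 ± 0.136), as did SCD (0.80 ± 0.08 and -0.30 ± 0.08) and DHCR7 (0.73 ± 0.09 and -0.36 ± 0.09). Under total count scaling the resistant difference was -0.16 for INSIG1, -0.16 for DHCR7 and -0.088 for SCD, so that these no longer turned round, and the MSMO1 difference no longer passed. HMGCS1 differed by 1.66 ± 0.10 in resistant cells, and its parental difference of 0.31 ± 0.11 was lost without JQ1 replicate 1 or dBET6 replicate 2 (adjusted p 0.189 and 0.314). TM7SF2 did not pass in resistant cells (-0.18 ± 0.20), nor did SCAP in parental cells (-0.01, 95% confidence interval -0.21 to 0.18), where it was -0.24 without dBET6 replicate 1 (adjusted p = 0.0207). The dBET6 libraries of both lines carry the larger shares of mitochondrial mRNA and of the most abundant genes given above.

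Part of the dBET6 response lay outside protein-coding transcripts, which are those GENCODE release 29 types as such. Single transcripts are given in TPM, which is scaled to the whole library and not to the median gene. Under total count scaling the median gene moved by -1.14 and -0.65 with dBET6 in resistant and parental cells. In TPM DHCR7-201 was at 24.2 and 26.0 with dBET6 against 31.5 and 29.4 with DMSO in resistant cells, though DHCR7 counts rose. HSD17B7, a sterol ketoreductase, stood at 15.3 and 13.2 CPM with dBET6 against 2.88 and 3.39 CPM with DMSO in resistant cells, and at 10.6 and 10.5 against 4.01 and 2.79 CPM in parental cells, a rise of 2.18 ± 0.17 and 1.63 ± 0.17. Protein-coding transcripts held 9.57% and 8.80% of its counts with dBET6 against 73.1% and 72.3% with DMSO in resistant cells, and 23.2% and 23.7% against 91.0% and 89.6% in parental cells. Counted over these alone, its change was -0.51 and -0.03 and passed in neither line, so the rise lay in its processed and intron-retaining transcripts. Of these HSD17B7-208 was at 2.53 and 2.04 TPM with dBET6 in resistant and 1.64 and 1.62 TPM in parental cells, where DMSO gave 0.26 and 0.20 TPM. The gene also has near-identical pseudogene copies, between which reads may be split. Coding transcripts of HMGCS1 held 64.2% and 68.1% of its counts with dBET6 against 92.1% and 91.4% with DMSO in resistant cells, yet over them it still rose by 1.94. For LSS the share was 78.9% and 78.5% against 92.9% and 89.4%, and over these transcripts it rose by 2.197 in resistant and 1.995 in parental cells.

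Protein-coding transcripts of INSIG2 held 0.00% and 19.5% of its counts with dBET6 against 80.5% and 76.2% with DMSO in resistant cells, and 54.5% and 52.1% against 84.4% and 80.4% in parental cells. The lowest library held 7 INSIG2 counts in all, so no fold is given over these transcripts. Its main transcript INSIG2-201 was at 0.00 and 0.04 TPM with dBET6 against 5.04 and 4.67 TPM with DMSO in resistant cells. In parental cells it was at 0.20 and 0.20 against 6.96 and 5.26 TPM. The transcripts of SREBF1 also shifted, with TPM again not set relative to the median gene. SREBF1-201 stood at 1.22 and 2.38 TPM with dBET6, 27.2 and 26.6 TPM with JQ1 and 22.0 and 21.2 TPM with DMSO in resistant cells, and at 3.79 and 2.91, 36.7 and 31.9, and 27.4 and 28.7 TPM in parental cells. SREBF1-202 was higher with dBET6 in each line, at 3.90 and 3.25 against 0.98 and 1.49 TPM with DMSO in resistant and 4.92 and 3.6 against 1.57 and 1.27 TPM in parental cells. These transcripts share most of their exons, so kallisto's division of reads between them carries an error not given here. In FDFT1 the intron-retaining FDFT1-216 was at 21.2 and 20.6 TPM with dBET6 against 0.28 and 0.62 TPM with DMSO in resistant cells, and at 22.1 and 23.3 against 0.00 and 0.00 TPM in parental cells. ELOVL6-207, a processed transcript of 204 bases, was at 22.0 and 15.2 TPM with dBET6 against 15.7 and 9.01 TPM with DMSO in resistant cells and at 8.54 and 20.9 against 9.58 and 22.9 TPM in parental cells, while the 3090-base ELOVL6-201 was at 0.33 and 0.50 against 7.97 and 6.14 TPM in resistant cells. In parental cells ELOVL6-201 was at 0.54 and 0.81 against 15.9 and 13.3 TPM. Over coding transcripts ELOVL6 fell by 1.97 and 2.73. Over the whole list, coding transcripts gave 19 genes higher and 8 lower with dBET6 in resistant and 15 and 9 in parental cells. The list's medians were 0.76 and 0.23, against all-gene medians of -0.15 and -0.11. No share of all genes by direction was computed over coding transcripts.

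**Figure D4:**
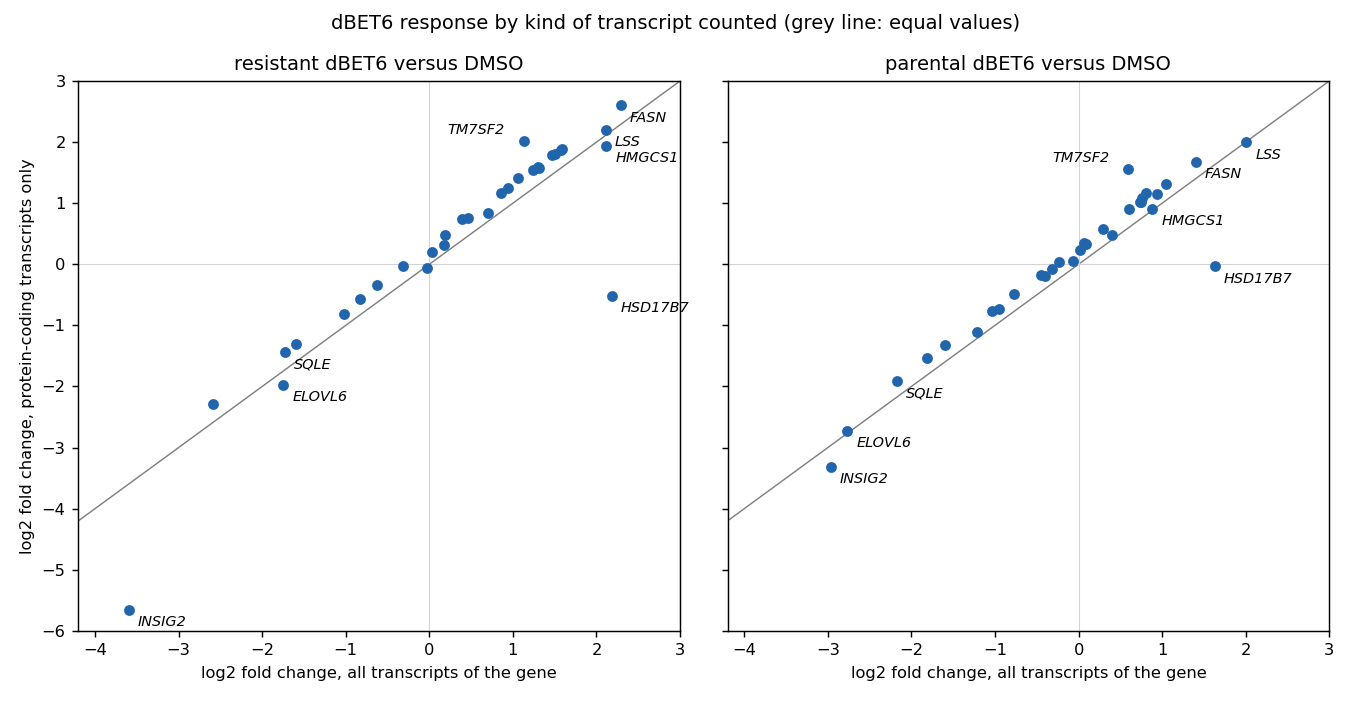
Log2 fold change with dBET6 against DMSO for 31 genes (points) in resistant (left) and parental cells (right), from all transcripts of a gene (x axis) and from its protein-coding transcripts alone (y axis); the grey line marks equal values. HSD17B7 lies far below the line (2.18 and -0.51 in resistant cells), and the lowest point in resistant cells is INSIG2, whose coding transcripts hold 0.00% and 19.5% of its few counts there.

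The genes around these pathways are given as counts, to be read beside the shares of all genes called with dBET6 (35.7% higher and 39.5% lower in resistant, 37.0% and 39.3% in parental cells). With dBET6, 8 of 10 genes of prenylation and dolichol synthesis were lower in either line, with medians of -1.78 in resistant and -0.92 in parental cells. Among them were NUS1, a subunit of the dolichol-making enzyme (-3.21 ± 0.11 and -2.63 ± 0.10), and FNTA, the shared subunit of the protein prenyltransferases (-2.14 ± 0.12 and -1.90 ± 0.11). Of 8 genes of SREBP cleavage and its control in the endoplasmic reticulum, 2 were higher and 4 lower with dBET6 in resistant cells and 4 and 4 in parental cells. Of 11 genes of sterol sensing by LXR and sterol export, 7 and 5 were higher and 2 and 4 lower. NPC2, a lysosomal cholesterol carrier, rose by 1.92 ± 0.09 and 1.32 ± 0.09. Among 17 genes of fatty acid elongation and activation 4 and 6 rose and 9 and 10 fell. There SLC25A1, the citrate carrier that feeds ACLY, rose by 1.99 ± 0.10 and 1.04 ± 0.09. The elongase ELOVL5 fell by 1.26 ± 0.10 and 1.71 ± 0.10. Of 10 genes of fatty acid oxidation 4 and 4 rose and 5 and 4 fell, counts near the shares of all genes, with CPT1A, the gate of the route into mitochondria, at -2.07 ± 0.10 and -1.89 ± 0.09. Of 10 genes of glycerolipid synthesis 4 and 3 rose and 5 and 6 fell. Of 5 further genes of sterol synthesis and uptake 3 and 2 were higher and 1 and 1 lower.

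With JQ1 the shares of all genes were 20.8% higher and 23.1% lower in resistant cells and 22.8% and 26.1% in parental cells. Of the 17 elongation and activation genes 9 were higher and 3 lower in resistant and 10 and 3 in parental cells, with medians of 0.28 and 0.33. MID1IP1, an activator of acetyl-CoA carboxylase, rose by 1.66 ± 0.09 and 1.55 ± 0.09. Of the prenylation and dolichol genes 2 and 2 were higher and 6 and 6 lower, of the SREBP cleavage genes 4 and 3 higher and 2 and 1 lower, and of the LXR and export genes 5 and 6 higher and 2 and 2 lower. Fatty acid oxidation genes had 6 and 6 higher and 1 and 2 lower, with ACADVL, the very-long-chain acyl-CoA dehydrogenase, at 1.01 ± 0.09 and 0.97 ± 0.09. DGAT1, which makes triglycerides, rose by 1.93 ± 0.10 and 1.67 ± 0.10 among glycerolipid genes, of which 3 and 3 rose and 4 and 3 fell. Of the 5 further genes of sterol synthesis and uptake 1 was higher and 1 lower in each line. Their medians were 0.085 in resistant and 0.048 in parental cells.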

How the data were processed

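RNA of 12 U87 libraries was sequenced, 2 in each of 6 groups. The authors deposited kallisto tables with estimated counts and TPM values for each transcript, per the file headers, and 1 table of FPKM per gene. The submitters' processing notes name kallisto, DESeq2 and the build hg19, with no version, and how the FPKM values were made is not given in the sources used here. The 32 genes, their roles and the other lists were chosen with earlier results of these data known. All 32 may be named. Some genes of the other lists are not reported here by name. Values per library were set for the 5 regulators and, in each of the 9 comparisons, for the called gene of smallest p in each role. Those of CYP51A1, MSMO1, TM7SF2, HSD17B7, ACSS2 and ACAT2 were added after their values were seen.

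Estimated counts were summed per gene through transcript names of GENCODE 29 and rounded to whole numbers. The transcripts so paired held 94.7% to 96.2% of the counts, and TPM sums rebuilt the deposited FPKM ratios within 1% for 82.0% of 10511 genes and for 25 of 31 listed genes. SREBF1, ACSS2, FASN, GGPS1, HSD17B7 and ACAT2 were the others (0.477 to 0.940 of the deposited value). Genes passing edgeR's expression filter (19093) were scaled by TMM and fitted together with robust quasi-likelihood (edgeR 4.0.16, R 4.3.3). The fit had 6 groups and 6 residual degrees of freedom. The biological coefficient of variation was 7.88%. P-values were adjusted by Benjamini-Hochberg over all genes. Standard errors are the absolute log2 change over the root of F. FPKM values were tested with limma 3.58.1 on log2(FPKM + 1), for genes with a mean of at least 1, and fold changes on that scale understate the change of low genes. DESeq2 1.42.0, RLE, total count and mitochondrial mRNA scaling (13 genes), other filters, a replicate block, the compared libraries alone and each library left out were the alternatives. Replicates differed beyond sampling noise, with a chi-square of 4.56 to 12.9 for each degree of freedom, so no library was counted as a copy. The code was tested on simulated data. The strand setting of the counting is not given in the sources used here.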

Additional observations from a re-analysis of the deposited data

Results flagged for a closer look

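The response to dBET6 differed between the lines by a test of the difference itself (edgeR, resistant minus parental, log2) in 17 genes of the list. It was larger or less negative in resistant cells for MSMO1 (2.02), DHCR7 (1.44), HMGCS1 (1.23), ELOVL6 (1.02), ACSS2 (0.92), FASN (0.89), SCD (0.86), INSIG1 (0.83), FDFT1 (0.77), SREBF2 (0.71), MVD (0.58), SREBF1 (0.48), SQLE (0.445), FADS1 (0.42) and NSDHL (0.41). It was more negative, or less positive, in resistant cells for GGPS1 (-0.99) and SCAP (-0.43). MVD had an adjusted p of 0.00385, between changes of 0.18 in resistant and -0.40 in parental cells. The median gene moved further with dBET6 in resistant than in parental cells under total count scaling (-1.14 and -0.65), and the part of that shift in these differences was not tested.

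The response to JQ1 differed in the same test for INSIG1 (-0.75), EBP (0.47) and ELOVL6 (0.53). The groups held 2 libraries each, too few to look for single libraries that stand apart.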

How the results depend on the processing

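Each result was recomputed under 11 planned settings besides the fits without 1 library (ACSS2 in parental cells with dBET6 ran from -0.32 to 0.23 in those), and under 2 chosen after seeing the data, the count of coding transcripts alone and counts rebuilt from TPM at 1 length per gene. A call (higher, lower or none) counts as kept here even where the sign of an uncalled change turned. Of the 279 log2 changes of single genes, 264 kept their call under DESeq2 and 271 under RLE size factors. Over coding transcripts 257 did, with length-scaled counts 231, under total count scaling 199 and under mitochondrial mRNA scaling 150. Over the fits without 1 library 3218 of 3348 did. Total count and mitochondrial mRNA scaling move the median gene itself, as given above, and no share of all genes by direction was computed under them. The cause of the other changes was not tested. Precision is limited by 2 libraries per group and 6 residual degrees of freedom.

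For dBET6 against DMSO in resistant cells, 19 genes of the list higher became 9 under total count scaling, 0 under mitochondrial mRNA scaling. The 8 lower became 17 under total count scaling, 27 under mitochondrial mRNA scaling. The 14355 called over all genes became 7869 under a minimum mean of 10 CPM. For dBET6 against DMSO in parental cells, 14 genes of the list higher became 4 under total count scaling, 0 under mitochondrial mRNA scaling. The 12 lower became 19 under total count scaling, 28 under mitochondrial mRNA scaling. The 14573 called over all genes became 7730 under a minimum mean of 10 CPM. For JQ1 against DMSO in resistant cells, 19 genes of the list higher became 3 under mitochondrial mRNA scaling. The 5 lower became 9 under total count scaling and mitochondrial mRNA scaling. The 8391 called over all genes became 5548 under a minimum mean of 10 CPM, 5541 under limma on log2(FPKM + 1), 5319 under limma on log2(FPKM + 0.1), 4611 under limma on log2(FPKM + 1) without a filter. For JQ1 against DMSO in parental cells, 18 genes of the list higher became 7 under mitochondrial mRNA scaling. The 7 lower became 4 under limma on log2(FPKM + 1), limma on log2(FPKM + 0.1) and length-scaled TPM counts, 3 under limma on log2(FPKM + 1) without a filter. The 9341 called over all genes became 5835 under a minimum mean of 10 CPM, 6071 under limma on log2(FPKM + 0.1), 5622 under limma on log2(FPKM + 1) without a filter. For resistant against parental DMSO cells, 6 genes of the list higher became 11 under total count scaling, 2 under mitochondrial mRNA scaling, 10 under a minimum mean of 10 CPM and a fit of the compared libraries alone. The 8 lower became 4 under limma on log2(FPKM + 1), limma on log2(FPKM + 0.1), limma on log2(FPKM + 1) without a filter and length-scaled TPM counts, 4 to 9 without 1 library. The 7357 called over all genes became 4620 under a minimum mean of 10 CPM, 4017 under limma on log2(FPKM + 1), 3814 under limma on log2(FPKM + 0.1), 3447 under limma on log2(FPKM + 1) without a filter, 4862 under length-scaled TPM counts. For dBET6 against JQ1 in resistant cells, 18 genes of the list higher became 5 under total count scaling, 0 under mitochondrial mRNA scaling. The 11 lower became 19 under total count scaling, 25 under mitochondrial mRNA scaling, 7 under a minimum mean of 10 CPM. The 14168 called over all genes became 7889 under a minimum mean of 10 CPM. For dBET6 against JQ1 in parental cells, 9 genes of the list higher became 4 under total count scaling, 0 under mitochondrial mRNA scaling. The 15 lower became 27 under mitochondrial mRNA scaling. The 14239 called over all genes became 7711 under a minimum mean of 10 CPM. For the line difference in dBET6 response, 15 genes of the list higher became 9 under total count scaling and length-scaled TPM counts, 3 under mitochondrial mRNA scaling. The 2 lower became 1 under mitochondrial mRNA scaling, limma on log2(FPKM + 1), limma on log2(FPKM + 0.1) and length-scaled TPM counts, 0 under limma on log2(FPKM + 1) without a filter, 0 to 2 without 1 library. The 5333 called over all genes became 2727 under mitochondrial mRNA scaling, 3509 under limma on log2(FPKM + 1), 3289 under limma on log2(FPKM + 0.1), 3251 under limma on log2(FPKM + 1) without a filter, 3431 under length-scaled TPM counts. For the line difference in JQ1 response, 2 genes of the list higher became 1 under total count scaling, DESeq2, a minimum mean of 10 CPM, limma on log2(FPKM + 1), limma on log2(FPKM + 0.1) and coding transcripts alone, 0 under mitochondrial mRNA scaling, limma on log2(FPKM + 1) without a filter and length-scaled TPM counts, 0 to 3 without 1 library. The 1 lower became 2 under total count scaling. The 1241 called over all genes became 335 under mitochondrial mRNA scaling, 301 under limma on log2(FPKM + 1), 236 under limma on log2(FPKM + 0.1), 274 under limma on log2(FPKM + 1) without a filter, 342 under length-scaled TPM counts, 548 to 1493 without 1 library.

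The values that follow are log2 changes whose sign turned against the main value and that passed in either fit. Sign turns of changes that passed in neither fit are not listed. PMVK was at -1.60, MVD -1.89, IDI1 -1.01, FDPS -1.21, FDFT1 -1.365, TM7SF2 -0.94, MSMO1 -0.82, EBP -1.67, DHCR7 -0.56, SREBF1 -2.04, SREBF2 -0.60, INSIG1 -0.50, ACLY -0.77, ACSS2 -1.13, SCD -0.48, FADS1 -1.88 and FADS2 -0.75 for dBET6 against DMSO in resistant cells under mitochondrial mRNA scaling. HMGCS1 was at -0.86, PMVK -1.485, IDI1 -0.955, FDPS -1.17, TM7SF2 -1.205, HSD17B7 -0.12, EBP -1.69, DHCR7 -1.72, SREBF2 -1.02, SCAP -1.38, INSIG1 -1.025, ACLY -0.73, ACSS2 -1.78, FASN -0.38, SCD -1.04 and FADS2 -0.845 for dBET6 against DMSO in parental cells. HMGCS1 was at -0.13, FDFT1 -0.25, SREBF2 -0.335, SCAP -0.16, ACLY -0.10, ACSS2 -0.073, FADS2 -0.18 and STARD4 -0.14 for JQ1 against DMSO in resistant cells. ACAT2 was at -1.08, PMVK -0.84, IDI1 -1.11, FDPS -0.31, FDFT1 -1.11, LSS -0.54, MSMO1 -0.31, EBP -0.60, DHCR7 -0.77, SREBF2 -0.26, INSIG1 -0.77, ACLY -0.67, ACSS2 -1.06, FASN -0.23, SCD -0.69, FADS1 -0.82 and FADS2 -0.57 for dBET6 against JQ1 in resistant cells. HMGCS1 was at -1.15, PMVK -0.91, FDPS -0.41, LSS -0.37, EBP -0.41, SREBF2 -1.12, ACLY -0.965, FASN -1.002, FADS1 -1.405 and FADS2 -1.195 for dBET6 against JQ1 in parental cells. PMVK was at -0.61, MVD -0.895, IDI1 -0.016, FDPS -0.22, FDFT1 -0.37, EBP -0.68, SREBF1 -1.05, ACSS2 -0.14 and FADS1 -0.89 for dBET6 against DMSO in resistant cells under total count scaling. PMVK was at -0.35, FDPS -0.034, TM7SF2 -0.048, EBP -0.55, DHCR7 -0.57, SCAP -0.24 and ACSS2 -0.62 for dBET6 against DMSO in parental cells. ACAT2 was at -0.47, PMVK -0.23, IDI1 -0.51, FDFT1 -0.505, DHCR7 -0.16, INSIG1 -0.16, ACLY -0.064, ACSS2 -0.44, SCD -0.088 and FADS1 -0.22 for dBET6 against JQ1 in resistant cells. HMGCS1 was at -0.20, SREBF2 -0.16, ACLY -0.003, FASN -0.055 and FADS1 -0.45 for dBET6 against JQ1 in parental cells. LSS was at -0.33, NSDHL -0.021 and FADS1 -0.017 for the line difference in dBET6 response. SCAP was at 0.37 for dBET6 against DMSO in resistant cells under a minimum mean of 10 CPM. FDFT1 was at 0.30 and FADS1 0.13 for dBET6 against DMSO in parental cells. SCAP was at 0.31 and SCD 0.018 for dBET6 against JQ1 in parental cells. SCAP was at 0.42 and ELOVL6 1.40 for dBET6 against DMSO in resistant cells under limma on log2(FPKM + 1), with or without a filter. FDFT1 was at 0.71, ELOVL6 0.015 and FADS1 0.14 for dBET6 against DMSO in parental cells. MVD was at 0.14 and ELOVL6 1.69 for dBET6 against JQ1 in resistant cells. FDFT1 was at 0.62 and ELOVL6 0.21 for dBET6 against JQ1 in parental cells. SCAP was at 0.075 for the line difference in dBET6 response. ELOVL6 was at -0.096 for the line difference in JQ1 response. SCAP was at 0.43 and ELOVL6 1.45 for dBET6 against DMSO in resistant cells under limma on log2(FPKM + 0.1). FDFT1 was at 0.72, ELOVL6 0.012 and FADS1 0.14 for dBET6 against DMSO in parental cells. MVD was at 0.14 and ELOVL6 1.76 for dBET6 against JQ1 in resistant cells. FDFT1 was at 0.62 and ELOVL6 0.21 for dBET6 against JQ1 in parental cells. SCAP was at 0.079 for the line difference in dBET6 response. ELOVL6 was at -0.11 for the line difference in JQ1 response. SCAP was at 0.33 and ELOVL6 1.34 for dBET6 against DMSO in resistant cells under length-scaled TPM counts. FDFT1 was at 0.66, ELOVL6 0.052 and FADS1 0.088 for dBET6 against DMSO in parental cells. MVD was at 0.053 and ELOVL6 1.65 for dBET6 against JQ1 in resistant cells. FDFT1 was at 0.55 and ELOVL6 0.24 for dBET6 against JQ1 in parental cells. SCAP was at 0.023 for the line difference in dBET6 response. ELOVL6 was at -0.11 for the line difference in JQ1 response. HSD17B7 was at -0.51 for dBET6 against DMSO in resistant cells under coding transcripts alone. HSD17B7 was at -0.034 and FADS1 0.034 for dBET6 against DMSO in parental cells. HSD17B7 was at -0.86 for dBET6 against JQ1 in resistant cells. ACSS2 was at -0.32 for dBET6 against DMSO in parental cells under the fit without parental dBET6 replicate 1. FADS1 was at -0.029 for dBET6 against DMSO in resistant cells under no filter.

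Replicate numbers did not pair the libraries: the deviations of same-numbered libraries correlated between -0.058 and 0.061. With the replicate block 18 genes were higher with dBET6 in resistant cells instead of 19, FADS1 being lost (0.19, adjusted p = 0.0575), and no other call on a gene of the list changed.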
